A study of Mus musculus with 298 samples.

Results

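Ribosomal protein pseudogenes are genomic copies of the genes for the proteins of the ribosome. Here they were taken as every row of the deposited expression values whose GENCODE symbol starts with Rpl or Rps and ends in "-ps" and a number, such as Rpl15-ps3. The rule found 37 of 14605 rows. GENCODE M39, the annotation used for names and positions, lists 322 such symbols, and the other 285 were not analysed here. It types 23 of the 37 as processed pseudogenes, 12 as transcribed processed pseudogenes, 1 as a long noncoding RNA (Rps18-ps4) and 1 as protein coding (Rpl10-ps3).

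RNA of whole blood was sequenced at weekly draws in 20 mice, giving 298 libraries, although the labels name the tissue PBMC. Every mouse, controls included, carried the SCLtTA and human BCR-ABL transgenes (tTA+/-, BCR-ABL+/-) on a C57BL/6 background and was 6 to 8 weeks old at the start. SCLtTA is a tetracycline-repressed activator under a promoter of the Scl gene, which is active in blood stem and progenitor cells, so that taking tetracycline (0.5 g/L in the water) away turns on BCR-ABL, the fusion kinase of chronic myeloid leukaemia (CML). Control mice (3, with 57 libraries) were kept on tetracycline to week 18. CML mice (6, with 94 libraries) were taken off it after the week 0 draw. TOTO mice (4, with 48 libraries) were off it for 6 weeks and then on again for 12. TKI mice (7, with 99 libraries) were off it and received nilotinib, an inhibitor of the kinase, by daily gavage at 50 mg/kg for 4 weeks from week 6. Replicates are separate mice. The 17 mice of the CML, TOTO and TKI cohorts are called Tet-off mice up to week 6. The week 6 draw was taken as the level before nilotinib or renewed tetracycline, although the labels do not say whether it came first.

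The values are TPM, a transcript level per length that sums to nearly the same total in every library. The sequencing depth behind it is unknown. In the CML mouse labelled 487 the BCR-ABL row was at 0 in 16 of 19 libraries, against 0 to 6 libraries in each of the other 16 Tet-off mice. The library of control mouse 490 at week 17 stood apart, with 2552 genes at 1 TPM or more against a median of 9965 over all libraries. It enters no test. The labels name 3 sequencing batches, each mouse lying in 1 of them: 2021_E (4 mice, 76 libraries), 2022_A (11 mice, 151 libraries) and 2022_B (5 mice, 71 libraries). Defining markers of B cells, T cells, neutrophils, red cells and platelets were all measured. Haemoglobin transcripts took a median of 42.6% of TPM, from 0.331% to 74.7%.

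A processed pseudogene arises when a spliced messenger RNA is copied into DNA and inserted elsewhere in the genome, so it carries the exons of its parent gene joined together, with no introns and usually no promoter of its own. Ribosomal protein genes are among the most highly expressed genes of every cell and have left very many such copies in mammalian genomes. Where a copy has kept the letters of its parent, a short sequencing read from inside an exon or across a junction of exons fits both places, and a quantification program must divide such reads between them.

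The sequences show what could and could not be told apart. Each row was aligned to the transcripts of the ribosomal protein genes, and the longest stretch identical to the best match, called the shared run, was measured as a percentage of the row's length. All 37 best matches were the genes that the symbols name. In 12 rows the shared run covered at least 95% of the row, and these are called identical copies. Rpl15-ps3 (GRCm39 9:22096903-22097517, minus strand, 615 bases) and Rps6-ps4 (2:75021417-75022166, minus strand, 750 bases) are identical copies over their whole length. An 80-base stretch of each is printed from GENCODE M39 and GRCm39, with capitals for the 2 bases on either side of the place where the parent's exons join.

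Rpl15-ps3: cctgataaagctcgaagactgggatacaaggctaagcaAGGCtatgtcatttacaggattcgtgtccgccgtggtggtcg
Rpl15: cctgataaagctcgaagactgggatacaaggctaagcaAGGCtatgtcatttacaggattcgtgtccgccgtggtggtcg
Rps6-ps4: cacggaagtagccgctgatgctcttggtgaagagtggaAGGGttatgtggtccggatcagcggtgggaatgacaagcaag
Rps6: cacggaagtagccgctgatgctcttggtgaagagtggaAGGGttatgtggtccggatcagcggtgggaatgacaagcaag

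The first pseudogene stretch lies at 9:22097306-22097385 (bases 133 to 212 of the coding region) and the second at 2:75021989-75022068 (bases 99 to 178). In the parents the same letters are split over a pair of exons, at 14:4199378-4199417 and 14:4199653-4199692 on the plus strand for Rpl15, and at 4:86774965-86775004 and 4:86774554-86774593 on the minus strand for Rps6. Both pseudogenes have an open reading frame as long as the parent's, 205 codons for Rpl15-ps3 and 250 for Rps6-ps4. No base within either row distinguishes it from the messenger RNA of its parent.

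Rows that are not identical copies carry bases of their own. Rps27a-ps3 (6:122433863-122434333, plus strand) differs from Rps27a by 1 substitution, A71G, and Rps7-ps3 (X:151692535-151693116, minus strand) from Rps7 by T26G, G48A and G123T. In these tokens the parent's base comes first and positions are counted from 1 at the first base of the parent's coding region. The stretches that hold these differences are shown with the differing bases in capitals.

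Rps27a-ps3: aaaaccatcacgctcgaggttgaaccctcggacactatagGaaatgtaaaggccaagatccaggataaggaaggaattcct
Rps27a: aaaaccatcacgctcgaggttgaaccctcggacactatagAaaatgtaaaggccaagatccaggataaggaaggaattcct
Rps7-ps3: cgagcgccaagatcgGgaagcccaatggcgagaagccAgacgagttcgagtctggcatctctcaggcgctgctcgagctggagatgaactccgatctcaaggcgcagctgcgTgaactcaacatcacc
Rps7: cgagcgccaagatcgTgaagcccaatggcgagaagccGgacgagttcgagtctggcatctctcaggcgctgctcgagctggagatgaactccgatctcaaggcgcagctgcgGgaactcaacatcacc

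The printed stretches lie at 6:122433893-122433973 and X:151692979-151693106. The longest shared run made 84.9% of the length of Rps27a-ps3 and 78.9% of that of Rps7-ps3. Rps6-ps3 had diverged further and is shown for contrast, over 120 bases with 5 differences.

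Rps6-ps3: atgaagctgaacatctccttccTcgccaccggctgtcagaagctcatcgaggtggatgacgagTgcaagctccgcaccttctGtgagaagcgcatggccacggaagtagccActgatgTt
Rps6: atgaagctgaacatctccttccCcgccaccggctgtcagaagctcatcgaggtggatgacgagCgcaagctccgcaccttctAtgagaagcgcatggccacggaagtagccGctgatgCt

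The Rps6-ps3 stretch lies at 9:53601464-53601583 on the minus strand. Over its whole match Rps6-ps3 had 11 mismatches to Rps6, an identity of 98.5%, and a shared run of 26.8% of its length.

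The identical copies had the higher levels. The 12 identical copies had mean TPM over all libraries from 22.6 to 357, with a median of 125. The other 25 rows ran from 0.0363 to 28.2, with a median of 0.533. A mean of at least 1 TPM, the filter for testing, was passed by 17 of the 37 rows, made up of the 12 identical copies and 5 others. All 37 rows together held a median of 1653 TPM per library (371 to 4818), of which the identical copies made a median of 97.7% (80.4% to 99.6%). The annotation holds 14 identical copies by the same measure among its 322 symbols, and 12 of these were among the rows analysed.

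**Figure D1:**
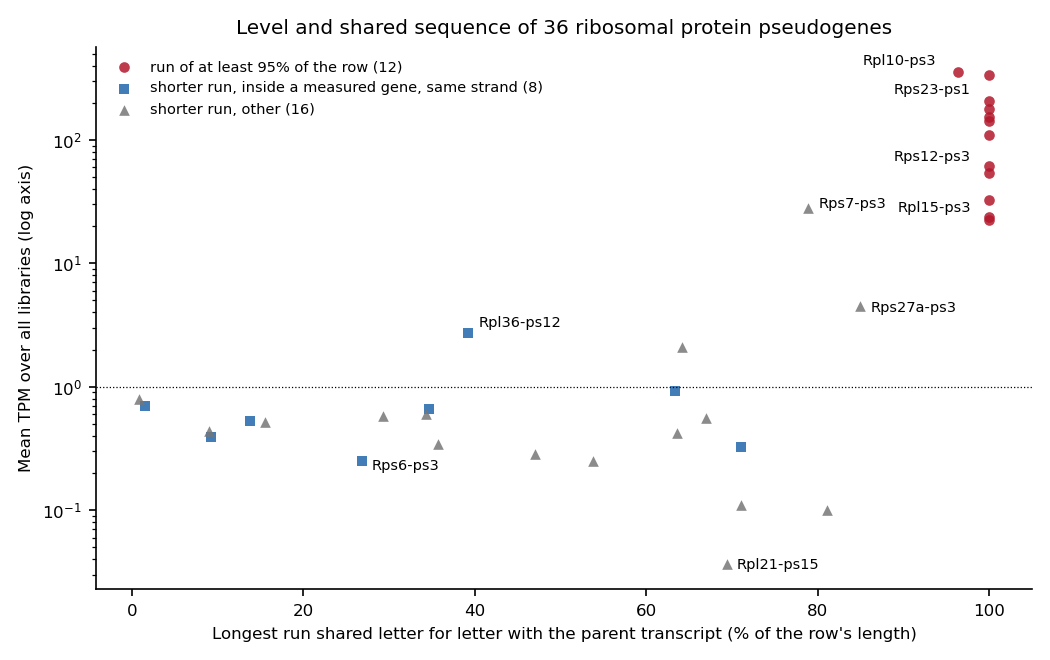
Mean TPM over all 298 libraries (log axis) of each of the 37 pseudogenes (36 of them shown) against its longest shared run with the parent transcript in percent of its length, with the dotted line at 1 TPM. The 12 identical copies (red) lie between 22.6 and 357 TPM, and of the others only Rps7-ps3, at 28.2 TPM, comes above the lowest of them.

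The 8 rows with the highest mean were all identical copies. Rpl10-ps3 led at 357 TPM (9:50255501-50256268, minus strand, within 2310003N18Rik), and 740 of its 768 bases formed the shared run. Its reading frame of 215 codons equals that of Rpl10, a protein of the large subunit. Next came Rps23-ps1 at 335 TPM (3:37768889-37769313, plus), whose parent encodes a protein near the decoding centre of the small subunit, and Rpl28-ps1 at 208 TPM (1:127966306-127966719, plus). Rpl31-ps8 had 178 TPM (15:90648482-90648859, minus), Rps16-ps2 had 153 TPM (5:129205141-129205581, minus), Rpl27-ps3 had 141 TPM and Rpl36a-ps2 had 109 TPM (3:145584775-145585095, plus, within Ddah1). Rps12-ps3 was the eighth at 61.9 TPM (19:59310803-59311198, plus). The longest reading frame found within the row held 16 codons in Rps23-ps1 (parent 144) and 20 in Rps12-ps3 (parent 133). These rows matched 98.4% and 99.2% of the parent's coding region without a mismatch. Only frames with both a start and a stop codon inside the row were counted. These lengths thus do not show that a reading frame was lost.

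The other identical copies were Rpl10a-ps1 at 54.2 TPM (1:65033110-65033763, minus), Rps6-ps4 at 32.4, Rpl15-ps3 at 23.9 and Rps13-ps2 at 22.6 TPM (7:88179654-88180106, minus). Rps7-ps3 at 28.2 TPM, Rps27a-ps3 at 4.54, Rpl36-ps12 at 2.72 and Rpl14-ps1 at 2.11 TPM were among the 5 rows without an identical run that passed the filter. Just below the filter lay Rps13-ps4 at 0.918 TPM. The remaining 19 lay between 0.799 and 0.0363 TPM. They were Rps18-ps4 and Rpl13-ps1, which match their parents on the opposite strand, and Rps15a-ps6, Rps2-ps10, Rps19-ps3, Rpl15-ps6, Rps12-ps26, Rps27a-ps1, Rpl31-ps6, Rpl39-ps1, Rpl23a-ps2, Rps15a-ps4, Rpl10-ps6, Rpl17-ps5, Rps15a-ps7, Rps6-ps3, Rpl30-ps9, Rps13-ps1 and Rpl21-ps15. A long shared run did not by itself go with a high level: Rps13-ps1, with a run of 81.0% of its length, had a mean of 0.101 TPM and was at 0 in 238 libraries.

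To set each pseudogene against its parent, its share was taken as its TPM in percent of the sum of both. Among the identical copies 7 had a steady share. Rpl10-ps3 held a median of 91.9% of the pair (interquartile range 89.8% to 93.1%), so that its parent Rpl10 averaged 35.9 TPM. The median was 70.6% for Rps23-ps1, 69.9% for Rpl27-ps3, 68.0% for Rpl36a-ps2, 53.3% for Rpl28-ps1, 52.9% for Rpl31-ps8 and 35.9% for Rps16-ps2. Without the library that stood apart, the SD of these 7 shares over libraries was 2.05 to 4.99 percentage points. Shares in batch 2021_E were lower for some of them, at 65.3% for Rps23-ps1 against 71.2% in 2022_A and 71.1% in 2022_B, and at 62.4% for Rpl27-ps3 against 70.4% and 70.8%.

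In the other 5 identical copies the share ranged widely from library to library. Rpl15-ps3 had a median share of 10.4% (interquartile range 2.82% to 19.0%) and a highest of 68.5%, and it was at 0 TPM in 71 libraries. Rps6-ps4 had a median of 9.08% (2.29% to 14.9%) and was at 0 in 65 libraries, 45 of them among the 71 in which Rpl15-ps3 was at 0. Rps13-ps2 had a median of 6.99% (0% to 12.7%, 92 libraries at 0), Rps12-ps3 of 11.7% (7.95% to 17.2%, 37 at 0) and Rpl10a-ps1 of 29.0% (24.2% to 34.7%). Rps7-ps3, with its 3 substitutions, had a median of 8.61% (4.21% to 14.4%, 24 at 0) that was 21.9% in batch 2021_E, 7.30% in 2022_A and 4.67% in 2022_B. Rps27a-ps3 was at 0 in 150 libraries. Parents of the 17 rows that passed the filter were at 0 in at most 1 library. A value of 0 is a listed value, and with TPM alone the reads behind it are unknown.

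**Figure D2:**
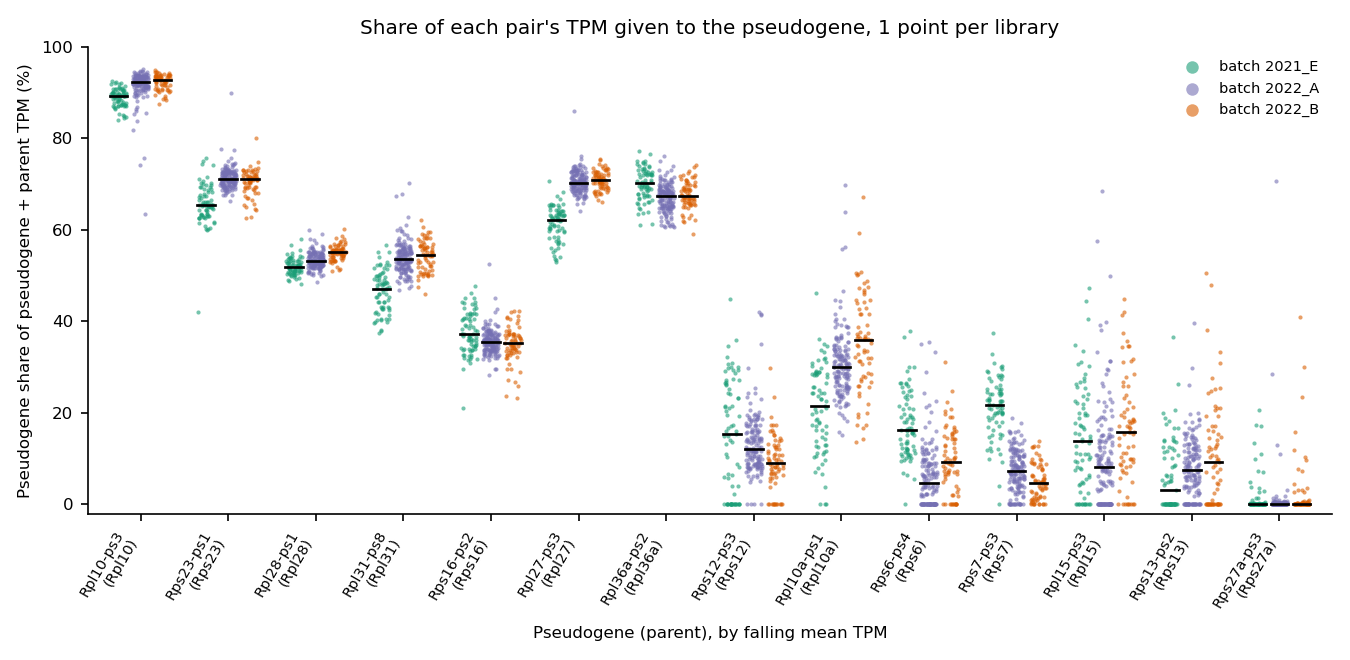
Share of pseudogene plus parent TPM held by the pseudogene in percent, for the 14 pseudogenes with the highest mean, 1 point per library (297, without the library that stood apart), coloured by sequencing batch, with a black bar at each batch median. From Rpl10-ps3 to Rpl36a-ps2 the points lie in narrow bands around 35.9% to 91.9%, while those of Rps12-ps3, Rps6-ps4, Rpl15-ps3 and Rps13-ps2 run from 0% upward.

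The mice differed in these variable shares, and so did the weeks of 1 mouse. The median share of Rpl15-ps3 over the weeks of a mouse ran from 0% in control mouse 488 to 23.3% in CML mouse 542. Within a mouse its range over weeks had a median of 36.6 percentage points over the 20 mice. The mouse medians of Rps6-ps4 ran from 0% (CML 477) to 25.1% (CML 480). Those of Rpl28-ps1 stayed between 51.2% and 55.6%, with a median range within a mouse of 5.09 points.

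Shares of some of the variable copies moved together, while others did not or went opposite ways. Spearman's correlation over the 298 libraries between the share of Rpl15-ps3 in the Rpl15 pair and that of Rps6-ps4 in the Rps6 pair was 0.72, and 0.68, 0.86 and 0.78 within 2021_E, 2022_A and 2022_B. With the share of Rps13-ps2 it was 0.63 (0.59, 0.68 and 0.75 by batch), and with that of Rps7-ps3 it was 0.01. Negative values also occurred. The share of Rps23-ps1 had -0.51 with that of Rps7-ps3 (-0.56, -0.24 and 0.15 by batch). With that of Rps6-ps4 it had -0.42 (-0.01, -0.05 and -0.45). Libraries of 1 mouse share that mouse, and libraries of 1 batch share that batch, so these are descriptions. The highest share of Rpl15-ps3, 68.5%, was in TOTO mouse 545 at week 7, where Rps6-ps4 held 35.0% of its pair, Rps12-ps3 41.5% and Rps27a-ps3 70.6%. That library had 5541 genes at 1 TPM or more and 63.6% haemoglobin. TKI mouse 502 at week 12 followed with 57.6% for Rpl15-ps3 and 35.4% for Rps6-ps4.

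A further measure, the median level of 122 small nucleolar RNA genes (short noncoding RNAs that guide rRNA modification and often lie in introns of ribosomal protein genes), was chosen after these shares had been seen. Here and below, rescaled levels are TPM divided by a size factor per library, the median ratio to the average library over 4339 genes above 0 everywhere. Spearman's correlation of the rescaled snoRNA median with the share over 298 libraries was 0.59 for Rpl15-ps3 (0.50, 0.63 and 0.52 by batch), 0.56 for Rps6-ps4 (0.41, 0.59 and 0.41) and 0.45 for Rps13-ps2 (0.40, 0.56 and 0.61). Its part in the shares was not tested.

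Levels were then set against the parent, against the other ribosomal protein genes and against Ngp, which encodes a protein of the secondary granules that neutrophils make as they mature in the marrow. Over the 298 libraries the rescaled level of Rpl28-ps1 had a Spearman correlation of 0.91 with Rpl28, which ranked Rpl28 first of 10518 genes. The parent's correlation and rank were 0.77 and 28 for Rpl36a-ps2, 0.65 and 41 for Rps16-ps2, 0.64 and 189 for Rpl31-ps8, 0.59 and 115 for Rps23-ps1, and 0.55 and 94 for Rpl27-ps3. For Rpl10-ps3 it was 0.04, with Rpl10 at rank 4817 and Rps12 first at 0.91.

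The variable copies did not follow their parents over libraries. The correlation was -0.03 between Rpl15-ps3 and Rpl15 and -0.07 between Rps6-ps4 and Rps6. The gene most like Rpl15-ps3 was Rps6-ps4, and the gene most like Rps6-ps4 was Rpl15-ps3, at 0.76. For Rps12-ps3 the correlation with the parent was 0.13, for Rpl10a-ps1 0.08, for Rps13-ps2 0.08 and for Rps7-ps3 -0.18.

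Member, parent and their sum were set against the rest of the family. Against the median of 84 other ribosomal protein genes, Rps6-ps4 had a correlation of 0.10 and Rps6 of 0.91, and their sum had 0.86. The values for Rpl15-ps3, Rpl15 and their sum were 0.22, 0.86 and 0.81, and for Rps13-ps2, Rps13 and their sum 0.14, 0.85 and 0.79. In the Rpl10 pair the order was the other way, with 0.68 for Rpl10-ps3, 0.15 for Rpl10 and 0.67 for the sum. In the Rps23 pair it was 0.92 for Rps23-ps1, 0.56 for Rps23 and 0.87 for the sum. In all these pairs the sum lay below the better partner. The sum lay above both partners in the Rps16 (0.93), Rpl10a (0.87), Rps7 (0.85), Rpl27 (0.83), Rpl36a (0.82) and Rpl31 (0.74) pairs. In the remaining pairs of tested rows it did not. These values share their libraries and the larger partner dominates a sum, and no test was made.

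Against Ngp the members' rescaled levels spread over both signs. The Spearman correlation over 298 libraries was 0.55 for Rpl10-ps3, 0.53 for Rpl28-ps1, 0.40 for Rpl15-ps3, 0.38 for Rps13-ps2 and 0.20 for Rps6-ps4. For their parents it was 0.09 for Rpl10, 0.46 for Rpl28, 0.19 for Rpl15, -0.05 for Rps13 and 0.23 for Rps6. It was -0.68 for Rpl23a-ps2, -0.56 for Rps6-ps3 and -0.54 for Rps15a-ps6. For shares in place of levels it was 0.37 for Rpl15-ps3 (0.39, 0.62 and 0.16 by batch) and 0.16 for Rps6-ps4 (0.39, 0.56 and 0.20 by batch).

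Of the 25 rows without an identical run, 9 lie inside another measured gene on the same strand, here called the host. Reads of a host's unspliced or exonic RNA can cover such a row. Rpl23a-ps2 lies in an intron of Rabep1, an endosome protein, and its rescaled level had a Spearman correlation of 0.57 with the host and -0.36 with its parent Rpl23a over the 298 libraries. For Rps6-ps3 in Rab39, a small GTPase of vesicle traffic, these were 0.53 and -0.12. For Rps12-ps26 in Nol11 they were 0.44 and -0.36, and for Rps13-ps4 in Taf1c 0.37 and 0.03. Many other genes correlated better than these hosts. Of 10519 genes, Rabep1 ranked as number 1732, Nol11 as 2069 and Taf1c as 1376, and Rab39 had no rank. The values are thus not specific to the host. Rpl13-ps1 in Usp32 had 0.11 and -0.15, Rpl10-ps6 in an exon of Ide 0.10 and 0.07, and Rps15a-ps6 in Nudcd3 -0.13 and -0.11. Rpl36-ps12, in an exon of Sumf1, had -0.24 with the host and 0.49 with Rpl36, which ranked Rpl36 as number 4 of 10518 genes. All of these levels are low, at a mean of 0.248 to 2.72 TPM.

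**Figure D3:**
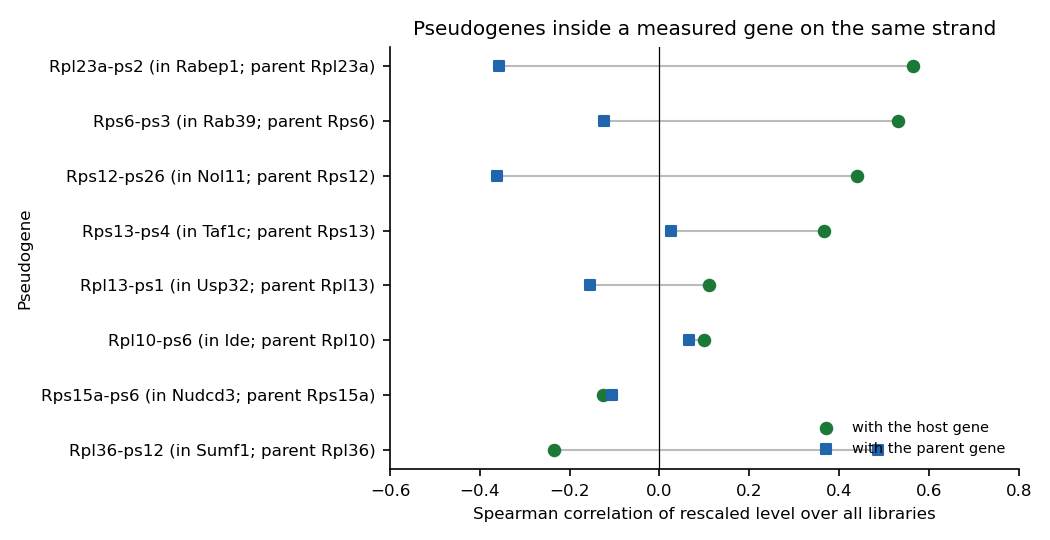
Spearman correlation over 298 libraries (horizontal axis) of the rescaled level of each of 8 pseudogenes with the gene it lies in (green circles) and with its parent (blue squares). The correlation with the host is the higher one by most in Rpl23a-ps2 (0.57 against -0.36), and the lower one by most in Rpl36-ps12 (-0.24 against 0.49).

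Transgene induction was examined as the change from week 0 to week 6 within each of the 17 Tet-off mice. Rpl15-ps3, Rps6-ps4 and Rps13-ps2 rose and Rps27a-ps3 passed narrowly, while none of their parents passed the test. Rps27a-ps3 reached 1 TPM in only 67 of 298 libraries, so its mean passed the filter through the libraries where it was high. Changes are given as the mean difference in log2(TPM + 1) with its standard error, tested with limma with Benjamini-Hochberg adjustment over 10519 genes. On the TPM as deposited, 5 of the 17 pseudogenes tested passed an adjusted p of 0.05, against 16% of all genes. Of these, 4 were higher, against 3.86% of all genes, and 1 was lower, against 12.2%. The median change was -0.01 over the 17 and -0.34 over all genes. On rescaled values 12 of 17 passed, 11 higher and 1 lower, against 73.4% of all genes (34.6% higher and 38.8% lower).

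Rpl15-ps3 was at 0 in 8 of the 17 mice at week 0, with a median of 5.46 TPM and a highest of 22.6. At week 6 its lowest value was 9.48, its median 32.2 and its highest 120 TPM. The ranges overlap, and it was higher in all 17 mice. Its log2 change was 3.25 ± 0.46 (SE, n = 17; limma adjusted p 3.35e-05), and 3.22 rescaled. Rpl15, its parent and a protein of the large subunit, changed by -0.30 (limma adjusted p 0.495), and the sum of both by 0.01 ± 0.30 (adjusted p 0.98). The share of the pseudogene went from a median of 1.33% (0% to 18.6%) to 15.8% (4.13% to 50.0%). That is a mean change of 17.8 ± 15.1 percentage points (SD, n = 17), positive in 15 mice and negative in TKI mice 502 and 508.

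Rps6-ps4 had 0, 2.64 and 120 TPM as its lowest, median and highest values at week 0, with 8 mice at 0. At week 6 these were 0, 37.2 and 118 TPM, with 1 mouse at 0. It was higher in 15 mice, lower in 1 and at 0 both times in 1. Its log2 change was 2.99 ± 0.44 (SE, n = 17; limma adjusted p 4.3e-05), and 3.07 rescaled. Rps6, a protein of the small subunit that is phosphorylated on growth signals, changed by -0.15, and the sum of both by 0.04. The mean change in share was 11.6 ± 9.46 percentage points (SD, n = 17).

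Rps13-ps2 went from 0, 9.91 and 83.5 TPM (lowest, median, highest; 7 mice at 0) to 9.09, 29.0 and 195 TPM, a log2 change of 2.34 ± 0.52 (SE, n = 17; limma adjusted p 0.00553) with 13 mice higher and 4 lower. The sum with Rps13 changed by -0.09. Rps27a-ps3, whose parent encodes ubiquitin fused to a ribosomal protein, passed narrowly and lost its call in 11 of 20 fits that left out 1 mouse, with a log2 change of 1.05 ± 0.37 (limma adjusted p 0.0499; 0.039 to 0.108 over those fits). It was higher in 8 mice, lower in 4 and at 0 both times in 5, and its median was 0 TPM at week 0 and 0.366 at week 6. Rps12-ps3 had 35.1 TPM as its median at week 0 and 62.0 at week 6, a log2 change of 1.44 ± 0.54 that did not pass as deposited (limma adjusted p 0.062) but did on rescaled values (1.65, adjusted p 0.017).

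The pseudogenes that did not pass as deposited had, apart from Rps12-ps3, log2 changes from -0.56 (Rpl14-ps1) to 0.39 (Rpl10a-ps1). They included the copies with the highest levels. Rpl10-ps3 had a median of 287 TPM (131 to 904) at week 0 and of 350 TPM (165 to 549) at week 6, a log2 change of 0.03 ± 0.30. Rpl28-ps1 had 150 TPM (86.2 to 567) and 217 TPM (129 to 327), a change of 0.07 ± 0.28, and its share changed by a mean of 0.0733 ± 2.73 percentage points (SD, n = 17). The interval of plus or minus 1 SE around these changes is wider than the changes themselves. On rescaled values Rpl10-ps3 changed by 0.38 (adjusted p 0.000252) and Rpl28-ps1 by 0.43 (adjusted p 0.00102).

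Adding each pseudogene to its parent left 0 of 17 pairs past the threshold by limma, with changes from -0.43 to 0.23. None of the 85 ribosomal protein genes tested passed as deposited (median -0.15), while 46 were higher and 2 lower rescaled.

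**Figure D4:**
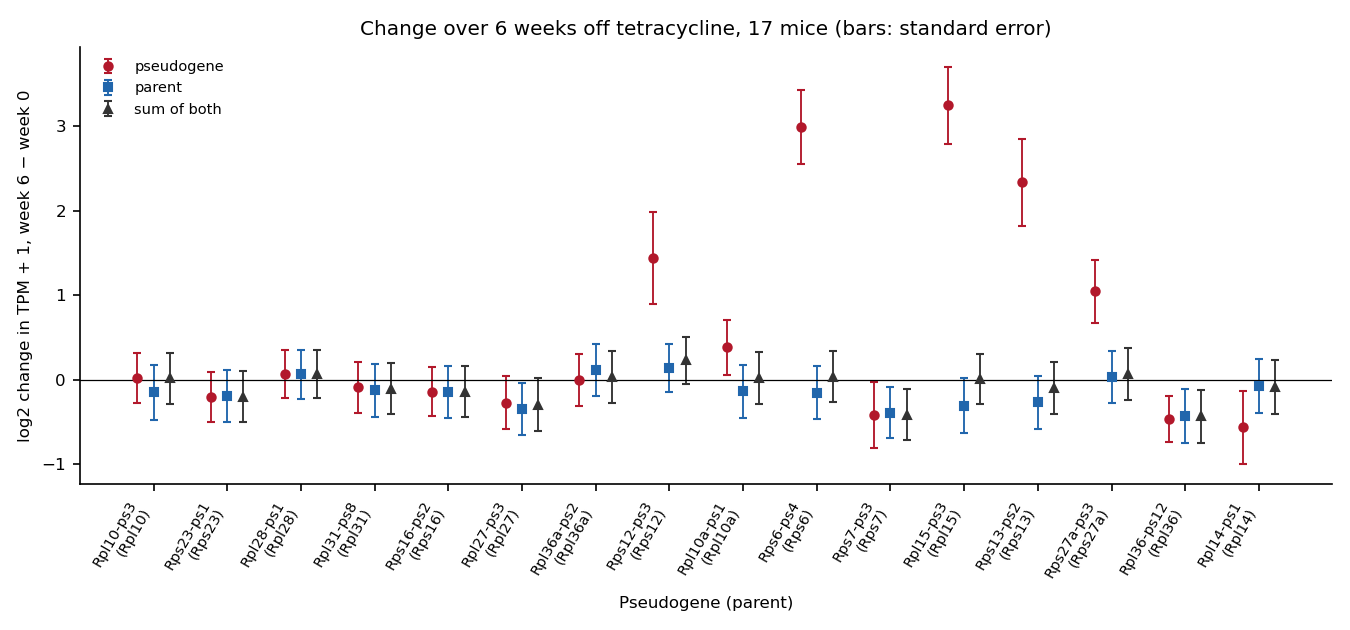
Mean log2 change in TPM + 1 from week 0 to week 6 in 17 Tet-off mice, with bars of 1 standard error, for 16 of the 17 pseudogenes tested (red), its parent (blue) and the sum of both (black). Rpl15-ps3 (3.25), Rps6-ps4 (2.99) and Rps13-ps2 (2.34) stand above their parents, and the sums lie between -0.43 and 0.23 for the 16 pairs shown.

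The rises were seen in each batch for Rpl15-ps3, with a mean log2 change of 3.48 in 2021_E (n = 2), 3.31 in 2022_A (n = 10) and 3.04 in 2022_B (n = 5). For Rps6-ps4 it was 0.50, 3.24 and 3.49, and for Rps13-ps2 2.27, 1.50 and 4.04. Rps27a-ps3 had 0, 0.89 and 1.80. Without CML mouse 487 the change was 3.15 for Rpl15-ps3, 2.89 for Rps6-ps4 and 2.18 for Rps13-ps2. Without it Rps27a-ps3 did not pass (0.91, limma adjusted p 0.0943), which leaves 4 of 17.

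The blood itself changed over these weeks. By limma as deposited, 8 of 9 secondary granule markers were higher (median log2 change 2.85), with Ngp at 5.64 ± 0.82 (limma adjusted p 4.3e-05; higher in 16 of 17 mice). Their summed level went from 26.3 to 726 TPM at week 0 to 56.1 to 3155 TPM at week 6. Of the mature neutrophil markers 5 of 7 and of the platelet markers 5 of 6 were higher. All 8 B cell markers (summed 176 to 2129 TPM, then 68.0 to 554 TPM) and 5 of 9 T cell markers were lower, and 0 of 7 erythroid markers passed. Of the 122 snoRNA genes 2 were higher and 8 lower. The rescaled snoRNA median changed by 0.13 ± 0.58 (SD, n = 17), higher in 10 mice. In whole blood, fewer cells of a type and less RNA per cell cannot be told apart. The part of these shifts in the pseudogene changes was not tested.

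Control mice stayed on tetracycline over the same weeks. Rpl15-ps3 went from 0 to 0 TPM in control mouse 489, from 49.1 to 9.55 in 490 and from 0 to 0 in 488. Rps6-ps4 went from 94.9 to 23.4 TPM in 489, from 71.9 to 26.1 in 490 and from 0 to 0 in 488. In the controls no value of either row was higher at week 6 than at week 0. Batches were unequal, with 2 controls in 2021_E and 1 in 2022_A, against 2 and 10 Tet-off mice. The 5 Tet-off mice of 2022_B had no control. Within 2021_E the mean log2 change of Rps6-ps4 was 0.50 in Tet-off mice and -1.70 in controls. For Rpl15-ps3 it was 3.48 and -1.12. Control mouse 488, of 2022_A, was at 0 in 17 of its 19 libraries for each row. The difference that follows was thus not balanced for batch. The difference between the Tet-off and the control change was 4.00 ± 1.18 for Rpl15-ps3 (unadjusted p 0.00173, limma adjusted p 1) and 4.13 ± 1.13 for Rps6-ps4 (unadjusted p 0.000845, limma adjusted p 1). Limma called 0 of 17 pseudogenes, as it called 0% of all genes, of which 232 had an unadjusted p under 0.05. The median difference over all genes was 0.40. Rescaled, 1 of 17 was called, and it was lower, against 14.1% of all genes (6.56% higher and 7.54% lower). Rescaled, Rpl15-ps3 had 3.78 (adjusted p 0.0623) and Rps6-ps4 3.40 (adjusted p 0.0658).

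The share of Rpl15-ps3 also moved from week to week. Its median over CML mice was 0% at weeks 0 and 1, 9.14% at week 2, 17.3% at week 3 and 30.9% at week 6, then 5.95% at week 9 and 26.8% at week 18. In TKI mice it was 8.70% at week 0, 0% at week 1, 19.1% at week 3, 15.8% at week 6, 11.3% at week 10 and 22.4% at week 16. In TOTO mice it was 0% through week 2, 14.2% at week 6, 19.0% at week 7, 7.31% at week 12 and 1.67% at week 18. Rps6-ps4 had medians of 1.03%, 21.7% and 24.0% at weeks 0, 6 and 18 in CML mice, and of 0%, 9.10% and 0% in TOTO mice. Shares also moved in control mice. There the median for Rpl15-ps3 was 0% at weeks 0 and 6, 9.89% at week 12 and 4.85% at week 18. For Rps6-ps4 it was 12.8%, 6.96% and 11.0% at weeks 0, 6 and 18. Control mouse 490 had 40.5% for Rpl15-ps3 and 24.8% for Rps6-ps4 at week 2. The share of Rpl28-ps1 kept medians of 50.2% to 55.4% over all cohorts and weeks.

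**Figure D5:**
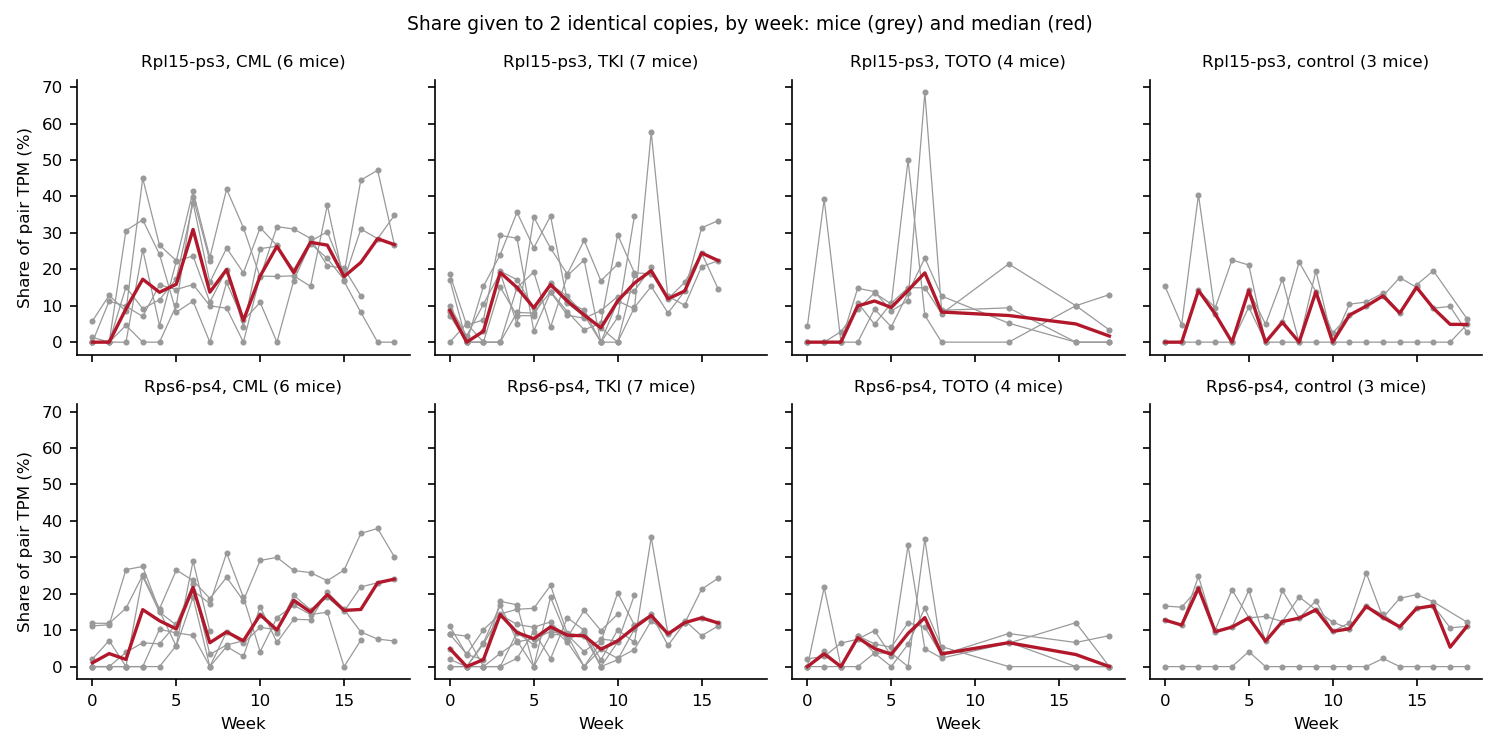
Share of pair TPM in percent held by Rpl15-ps3 (top) and Rps6-ps4 (bottom) against week, 1 panel per cohort, with a grey line per mouse and a red line at the median. In CML mice the median for Rpl15-ps3 goes from 0% at week 0 to 30.9% at week 6, and the highest value, 68.5%, is that of TOTO mouse 545 at week 7.

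The end state of disease was examined as the change from week 0 to the final draw in each of the 6 CML mice, less the change from week 0 to week 18 in 3 control mice. It uses the control libraries of week 0 that also entered the comparison before. The final draws fell at different weeks: 5 CML mice had a library at week 10, 4 at week 12 and 3 at week 18. The comparison thus mixes stages of disease, and time after week 0 was not matched to the controls. Limma called 0 of 17 pseudogenes, against 0.00951% of all genes (144 with an unadjusted p under 0.05), and 0 of 17 against 4.02% rescaled. Rps6-ps4 had the largest difference at 3.81 ± 1.35 (limma adjusted p 1; rescaled 3.19, adjusted p 0.164), higher in 5 of 6 CML mice. Rpl15-ps3 had 2.56 ± 1.74 (rescaled 2.23), higher in 4. Without control mouse 490 it was 1.21, and it reached 3.50 without control mouse 488. Among the CML mice, the mean change of Rpl15-ps3 was 5.13 in batch 2021_E, 5.64 in 2022_A and -0.24 in 2022_B (n = 2 each). Both mice of 2022_A, 477 and 484, had their final draw before week 12, so batch and time cannot be told apart in these means. The 3 CML libraries of week 18 had 0, 89.2 and 103 TPM of Rpl15-ps3 and 12.6, 108 and 182 TPM of Rps6-ps4. The control libraries of week 18 had 2.40, 6.12 and 14.0 TPM of Rpl15-ps3 and 0, 17.3 and 49.0 TPM of Rps6-ps4, so that the groups overlap for both rows.

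Nilotinib treatment was examined as the change from week 6 to week 10 in the 7 TKI mice. No pseudogene passed. Rpl15-ps3 had 9.48, 32.2 and 89.3 TPM as its lowest, median and highest values at week 6 and 0, 32.1 and 52.0 TPM at week 10, where 2 mice were at 0. Its log2 change was -1.41 ± 0.78 (limma adjusted p 0.312), with 4 mice higher and 3 lower. It was -0.73 without TKI mouse 511 and -0.81 without 512, and its mean was -0.61 in batch 2022_A (n = 4) and -2.48 in 2022_B (n = 3). Rps6-ps4 had 9.92, 35.3 and 94.6 TPM and then 5.31, 37.4 and 76.3 TPM, a change of -0.45 ± 0.45 with 2 mice higher and 5 lower. Ngp fell by 2.12 on the log2 scale (SE 0.42; limma adjusted p 0.0367). Limma called 0 of 17 pseudogenes as deposited, against 5.36% of all genes (2198 with an unadjusted p under 0.05). Rescaled it called 2 of 17, against 37.3%: Rpl31-ps8 at 0.27 (adjusted p 0.0251) and Rpl36a-ps2 at 0.34 (adjusted p 0.00334), each higher in 6 of 7 mice as deposited. The sums of pseudogene and parent changed by -0.04 to 0.30, and none passed.

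Set against the same weeks in 5 CML mice without nilotinib, limma called 0 of 17 pseudogenes, against 0.038% of all genes (1372 with an unadjusted p under 0.05), and 0 of 17 against 21.3% rescaled. The difference was -1.36 ± 1.20 for Rpl15-ps3 (limma adjusted p 0.721; -0.68 without TKI mouse 511 and -0.76 without 512) and -0.17 for Rps6-ps4, or 0.07 rescaled. That of Ngp was -3.83 (limma adjusted p 0.0141). The median over all genes was -0.12.

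Transgene shut-off was examined as the change from week 6 to week 12 in the 4 TOTO mice, which had tetracycline again from week 6. As deposited 2 of 17 pseudogenes rose, against 48.8% of all genes called (44.6% higher and 4.14% lower), while the median over all genes went up by 0.66. Rpl27-ps3 changed by 0.94 ± 0.34 (SE, n = 4; limma adjusted p 0.0239), higher in 3 mice and lower in mouse 545, but by 0.11 rescaled (adjusted p 0.655). Its parent Rpl27 changed by 0.86 and the sum by 0.92. Leaving out mouse 476, 482 or 483, Rpl27-ps3 did not pass (limma adjusted p 0.175, 0.115 and 0.0719). The count of 2 was 1 without 476, 1 without 483, 5 without TKI mouse 512, which adds only to the spread, and 8 without 545. It was 1 in a fit without the block for mouse.

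Rpl15-ps3 and Rps6-ps4 did not pass over shut-off. Rpl15-ps3 went from 12.0 to 60.9 TPM in mouse 476, from 60.6 to 0 in 482, from 21.9 to 13.6 in 483 and from 29.7 to 20.7 in 545, a log2 change of -1.21 ± 0.69 (SE, n = 4; limma adjusted p 0.138). Without mouse 482 the change was 0.36, and without 476 it was -2.37 (adjusted p 0.0182). Rps6-ps4 went from 18.5 to 44.1 TPM, from 91.6 to 21.7, from 17.4 to 0 and from 0 to 27.3 in the same mice, a change of -0.05 ± 0.72, which was 0.61 without 482, 1.33 without 483 and -1.67 without 545 (limma adjusted p 0.011). The mice went different ways in both rows. Rpl15 itself changed by 0.93 (limma adjusted p 0.0255).

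Rescaled, 4 of 17 passed over shut-off, 1 higher and 3 lower, against 63% of all genes (33.3% higher and 29.7% lower). Those lower were Rpl10-ps3 at -0.50 (adjusted p 0.0107), Rpl28-ps1 at -0.60 (adjusted p 0.00625) and Rps12-ps3 at -1.39 (adjusted p 0.0243). As deposited these had 0.34, 0.24 and -0.56 and did not pass. Of the pair sums 6 of 17 were higher as deposited, and of the ribosomal protein genes 28 of 85 were higher and 0 lower (median 0.68). All 8 B cell and 9 T cell markers were higher, 8 of 9 secondary granule, 7 of 7 mature neutrophil and 5 of 6 platelet markers were lower, and 75 of 122 snoRNA genes were higher (19 higher and 2 lower rescaled). Ngp changed by -7.15, lower in 4 of 4 mice. The part of these shifts in the pseudogene changes was not tested.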

How the data were processed

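The authors deposited TPM per gene, for 14605 genes and 298 libraries. These are labelled as genes at 1 TPM in 5 samples, and each of the 37 pseudogenes reached 1 TPM in at least 5 libraries. Presence among the rows thus appears to depend on level. The submitters' processing notes name STAR, Salmon and GRCm39, and versions and gene annotation are not given in the sources used here. Libraries were reverse stranded, depleted of ribosomal RNA and made from RNA with an integrity number above 4, per the labels' protocols. Read counts cannot be had from TPM, so the depth is unknown. TPM summed to 989100 to 999879 per library, and 0 columns could not be mapped to a mouse and week.

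The members, the gene lists and the tests were chosen with earlier results of these data known. Rows were matched to GENCODE M39 by gene ID without its version (14537 of 14605), and sequences were aligned with blastn 2.17.0. Genes with a mean of at least 1 TPM (10519) were tested on log2(TPM + 1), which understates the change of low rows. Each mouse gave 1 difference between weeks. The same mouse number means the same animal, per the labels, so mouse is the block. Each fit had a term per cohort, the Tet-off cohorts sharing 1 up to week 6, and limma 3.58.1 (R 4.3.3, eBayes with trend, Benjamini-Hochberg, threshold 0.05) pooled the spread. TOTO, CML, TKI and control mice outside a contrast added only to the spread. The fits were checked on simulated data. Named with values were the 8 highest rows, rows past the threshold, Rpl15-ps3 and Rps6-ps4, with parent, host and Ngp. Of the rows tested 1 is counted but otherwise not reported here. Rescaled values used size factors of 0.134 to 3.84. Alternatives were another pseudocount (0.1), no filter, rescaling, no block, a batch term, week 1 for week 0 and each mouse left out. Shares, correlations and figures were made in Python 3.11.15 with pandas 2.3.3, numpy 2.4.6, scipy 1.17.1 and matplotlib 3.10.9.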

Additional observations from a re-analysis of the deposited data

How the results depend on the processing

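The count of pseudogenes past the threshold at induction, 5 as reported, was 11 with no filter on low values (3 higher, 8 lower), 12 rescaled and 9 (all higher) with week 1 in place of week 0. It was 0 with members summed with their parents, an alternative chosen after seeing the data. Leaving out each mouse gave 4 to 6. Rescaling gave 1 (lower) in place of 0 for induction minus control and 2 (higher) in place of 0 for nilotinib. The shut-off count of 2 was 4 with a pseudocount of 0.1, 8 with no filter, 4 rescaled, 6 with members summed with parents and 1 to 8 with 1 mouse left out. In the fit without the replicate block, which ignores that libraries are paired by mouse, it was 1. The other 3 comparisons with controls or CML mice kept 0 when any 1 mouse was left out, as did nilotinib. Of all genes, 73.4% passed rescaled at induction and 63% rescaled over shut-off. With no filter, rows under the mean of 1 TPM were tested too, so those counts are not out of 17. For the other alternatives the share of all genes is not given here. The counts under those alternatives therefore cannot show whether the pseudogenes differ from other genes.

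Directions that turned were those of values past no threshold. The change of Rps6-ps4 under nilotinib was -0.92 to 0.024 with 1 mouse left out. Against CML mice it was 0.068 rescaled, 0.12 without CML mouse 484, 0.14 without 487, 0.08 without TKI mouse 512 and -0.80 to 0.31 over all such fits. Over shut-off, Rpl15-ps3 had -2.37 to 0.36, the latter without mouse 482, and Rps6-ps4 had -1.67 to 1.33, with 0.61 without 482. Rpl15-ps3 passed over shut-off with a pseudocount of 0.1 (-2.03, limma adjusted p 0.00744). At induction Rpl15-ps3 had 3.08 to 3.44 and Rps6-ps4 2.80 to 3.18 with 1 mouse left out. Of 134 counts under alternatives 119 were within 1.5 times the reported one, and of 369 values of named rows 337 kept their direction and side of the threshold. The cause of these shifts was not tested. The depth behind each TPM is unknown, and 4 TOTO and 3 control mice limit those comparisons.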
